A study of Mus musculus with 13 samples.

Results

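Sox9-positive small duct cholangiocytes, the epithelial cells that line the fine terminal branches of the bile duct tree, were gated from droplet-based single-cell RNA-seq of mouse liver. A cell barcode was a member when it held at least 1500 UMIs (unique molecular identifiers, each standing for 1 captured transcript), at least 2 UMIs of Epcam, at least 2 of Krt7 and Krt19 together, at least 1 of Sox9, and none of Dmbt1, Muc4, Aqp8 or Ptprc. The first genes mark biliary epithelium, Dmbt1, Muc4 and Aqp8 mark large ducts, and Ptprc (CD45) marks immune cells. In all, 2502 of 95563 cells met the rule. The members were chosen by these measured values, so the levels of the gate genes themselves describe the gate and are given with no test.

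The study fed male C57BL/6J mice of 6 to 12 weeks with chow holding 0.1% DDC (3,5-diethoxycarbonyl-1,4-dihydrocollidine), a xenobiotic that injures bile ducts, and sampled liver before the diet (D0) and on days 3, 5, 9, 19 and 25 of it (D3 to D25). A further library, STOP, came from mice on the diet for 18 days that then recovered for 7 days. No genotype other than the strain is given for these libraries. Each day was sampled with 2 isolation protocols. Protocol A pooled equal sorts of live singlets, Epcam+ cells, Cd45+ cells, Pdpn+ cells, Lyve-1+ cells, cells with Cd31 but no Lyve-1, and cells with retinoid autofluorescence. Protocol B pooled live cells of a stellate cell preparation, Epcam+ cells, Cd3e+ Lyve-1- cells and Cd45+ Itgax+ Cd64- cells, and was also used for STOP. The labels do not say how many mice went into a library, so a p-value here measures the spread between libraries. The library called D19 B carries the day 18 in another label field.

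Cholangiocytes modify bile by secreting chloride, bicarbonate and water, and they bear a primary cilium that senses flow. In cholestatic injury, small ducts proliferate and take on a reactive state known as the ductular reaction, in which the epithelium makes chemokines, adhesion molecules and matrix proteins. NF-kB, a family of transcription factors held in the cytoplasm by inhibitors until TNF, interleukin 1 or microbial products act on the cell, is a well known inducer of such genes. Sox9 is a transcription factor of the biliary lineage.

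Members were found unevenly. The protocol A libraries held 512 (D0), 10 (D3), 2 (D5), 311 (D9), 43 (D19) and 585 (D25) of them, and the protocol B libraries held 0, 63, 184, 91, 249 and 221 on the same days. STOP held 231. UMIs were summed over the members of each of the 10 libraries with at least 20 members, which leaves D0 A alone for steady state and D3 B and D5 B alone for the onset of disease. The sums held 644257 (D19 A) to 9476906 (D25 A) UMIs, out of library totals of 29307190 to 108602421. The median member held 9223 UMIs in STOP and 23969 in D9 B, with the other libraries between them. Mitochondrial transcripts took 2.30% to 4.33% of the members' UMIs in these 10 libraries. No pair of libraries shared a member barcode.

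Biliary and epithelial transcripts were high in every library, which does not show that the members were free of RNA from other cells. Spp1 (osteopontin), a small duct marker that the rule did not use, lay between 18754 and 33517 CPM and was among the most abundant transcripts throughout. CPM are counts of the gene per 1000000 UMIs of the summed cells, scaled by edgeR's TMM factors. Sums of cell type markers, free RNA and the comparison with large duct cells are given as CPM without this scaling. Krt8 and Krt18, the simple-epithelium keratins, were also high everywhere, at 2120 to 4061 and 1847 to 5413 CPM. Among the gate genes, Epcam was at 898 CPM in D0 A, 1376 in D3 B, 2419 in D5 B, 1776 to 2633 in the 6 libraries of D9 to D25 and 1767 in STOP. Sox9 ran the other way, at 1212 CPM in D0 A, 1151 in D3 B, 565 in D5 B, 491 to 668 from D9 to D25 and 575 in STOP. At the edge of the gate for Sox9, 1 (D3 B) to 42 (D9 A, of 311 members) members of a library held exactly 1 Sox9 UMI, with 38 of 585 in D25 A and 27 of 231 in STOP. Outside it, 0 (D3 B) to 41 (D25 A) cells held no Sox9 and met the other conditions, and in D19 A there were 9 of these beside 43 members. Otherwise matching cells with a Ptprc UMI stayed outside, and they numbered 5 (D19 A) to 116 (D9 A) in the protocol A libraries used, 56 (D3) to 176 (D5) in those of protocol B during the diet, and 227 in STOP.

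Transcripts of other liver cells were present in the sums and differed between libraries. Many members held 3 or more UMIs of other types' markers, hepatocyte markers not counted. Protocol A held 309 of 512 (D0), 220 of 311 (D9), 19 of 43 (D19) and 434 of 585 (D25). Protocol B held 26 of 63 (D3), 82 of 184 (D5), 45 of 91 (D9), 86 of 249 (D19) and 92 of 221 (D25). STOP held 93 of 231. The 10 hepatocyte markers summed to 7283 CPM in D0 A, 6206 in D3 B, 3180 in D5 B, 712 to 2888 from D9 to D25 and 4437 in STOP. Alb made up much of this (4547 TMM-scaled CPM in D0 A). The 8 endothelial markers summed to 173 to 665 CPM in the diet and steady state libraries and to 1384 in STOP, with none of the 8 at 0 in any library. The stellate cell and fibroblast list reached 591 CPM in D25 B and 424 in STOP and was as low as 3.65 in D9 B. Macrophage markers summed to 70.0 to 159 CPM, neutrophil markers to at most 121, and T, NK and B cell markers to at most 56.0. Dmbt1, Muc4 and Aqp8 were at 0 by the rule. In bulk sums, a gene that another cell type also makes cannot be assigned to the members alone, and fewer cells with a transcript and less of it per cell cannot be told apart.

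**Figure D1:**
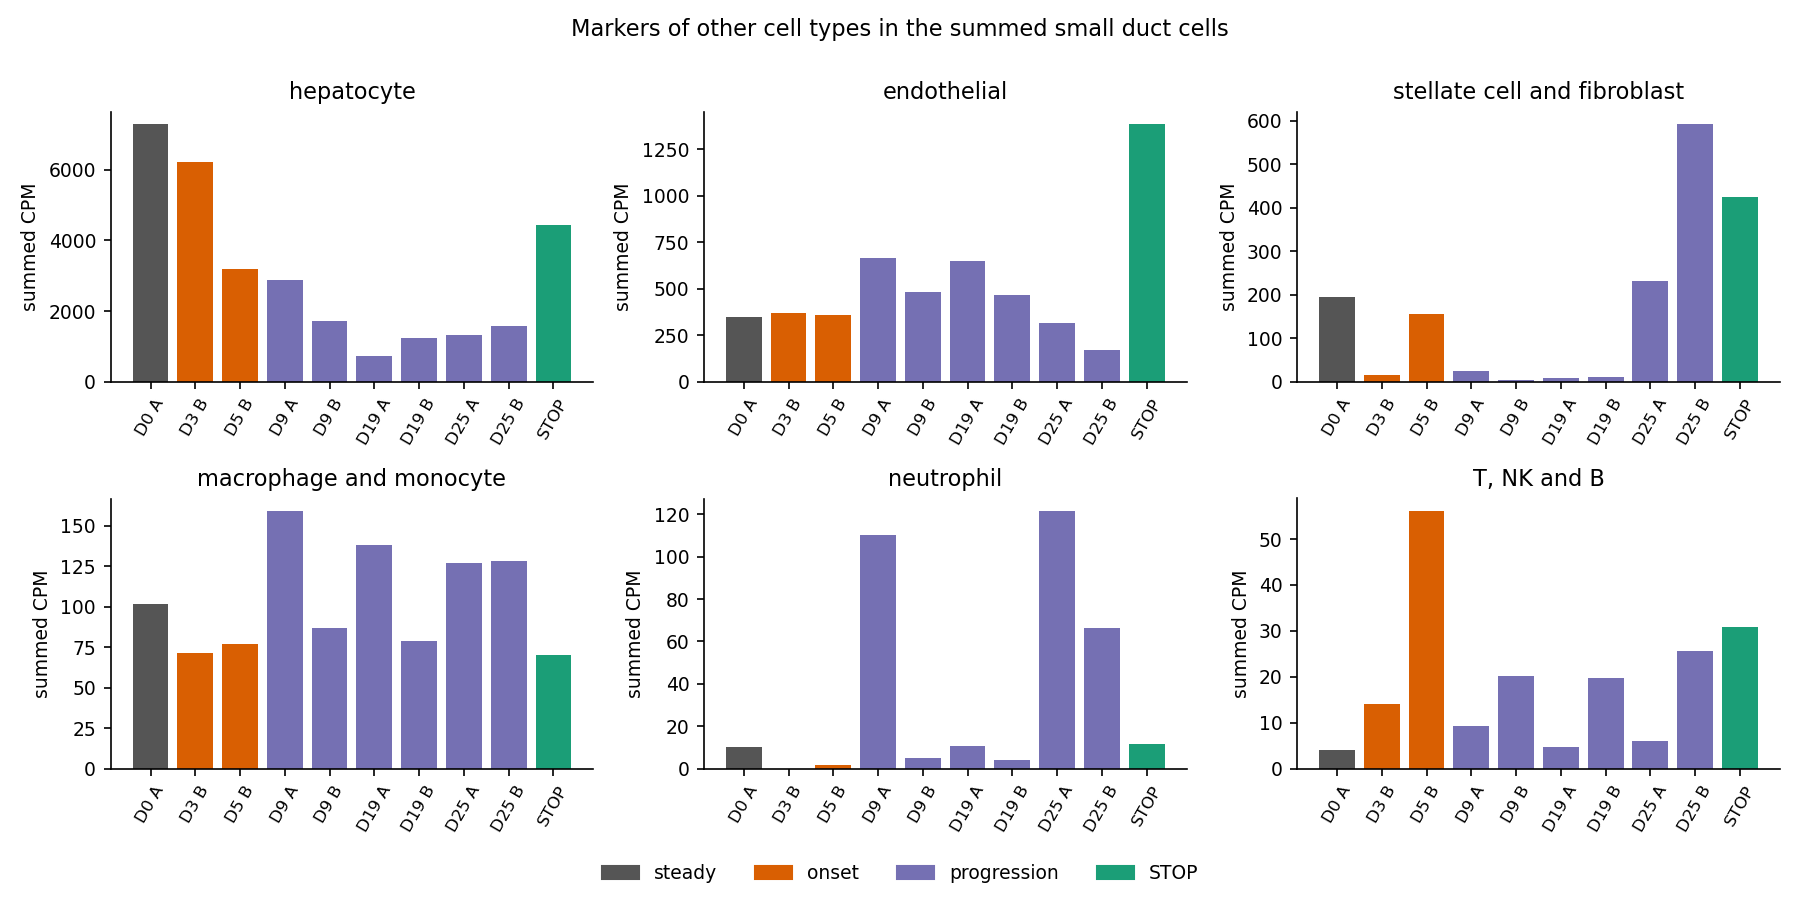
Summed CPM without TMM scaling (y axis, linear from 0) of the markers of 6 other cell types in the summed small duct cells. The 10 libraries (x axis) are coloured by disease stage. Hepatocyte transcripts are highest in D0 A (7283 CPM) and D3 B (6206), and endothelial transcripts are highest in STOP (1384).

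The days were grouped here into stages: steady state (D0), onset (D3 and D5), progression (D9, D19 and D25) and STOP. Progression, with 6 libraries of both protocols, was the only stage with a spread of its own within each protocol. In edgeR's quasi-likelihood test with a term for protocol, 487 of 13150 genes passed an adjusted p of 0.05 between progression and steady state. Of these, 216 (1.64% of the genes tested) were higher and 271 (2.06%) were lower in progression. Steady state is 1 library here, and its spread is assumed to be that of the other stages. Without D25 A, the largest sum of progression, only 4 of the 487 genes passed (Hps3, Ubd, Ints6 and Gm35533). Of the 45 named genes called, 44 then missed the threshold with the same direction, as for Cxcl5, at 7.19 ± 1.60 (adjusted p = 0.0701), and Cd44, at 4.58 ± 0.71 (adjusted p = 0.0560). Leaving out D3 B or D5 B raised the count to 1050 and 1055, leaving out D19 A or D19 B lowered it to 225 and 301, and DESeq2 called 763. Between onset and steady state, between progression and onset, and between STOP and progression, no gene passed (0% of the genes tested in each direction) with edgeR, while the numbers below 0.05 before adjustment were 1525, 1072 and 1257, and the calls of DESeq2 were 64, 23 and 76.

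Secreted chemokines and cytokines were among the genes that rose. Of the 20 genes in this list 18 were tested, and 6 rose while none fell, against 1.64% of all genes tested that rose. The median log2 fold change of the 18 was 2.08, beside 0.01 over all genes tested. Several members (Ccl2, Ccl20, Mif, Csf1, Tnf and Il23a) were named by the study from these same libraries, so their direction is no independent evidence.

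Cxcl5, a chemokine that attracts neutrophils, was at 10.4 CPM in D0 A, 60.7 in D3 B, 720 in D5 B, 739 (lowest), 1748 (median) and 3201 (highest) in progression, and 147 in STOP. It rose by 7.29 ± 1.56 (log2, SE) in progression over steady state, with an adjusted p of 0.0304 in edgeR's test. Every progression library lay above both D0 A and D3 B, and STOP lay between D3 B and the lowest progression library. Cxcl2, another neutrophil chemokine, followed the same order, with 23.3 CPM in D0 A, 63.2 in D3 B, 696 in D5 B, 365, 657 and 1105 in progression and 187 in STOP, and rose by 4.99 ± 1.20 (adjusted p = 0.0434). Cxcl1, the closest relative of Cxcl2, was already at 253 CPM in D0 A and at 352 to 1503 in progression, a difference of 1.08 ± 0.64 that did not pass (adjusted p = 0.324).

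Ccl20, the ligand of Ccr6 on dendritic cells and IL-17-producing T cells, was at 1.80 CPM in D0 A (14 UMIs), 15.0 in D3 B, 103 in D5 B, 27.7, 55.3 and 76.5 in progression and 16.0 in STOP. Its highest library was D5 B, and the test of progression over steady state gave 4.86 ± 1.06 (adjusted p = 0.0318). Ccl2, the monocyte attractant, had 0 UMIs in D0 A, 0.832 CPM in D3 B, 24.2 in D5 B, 5.56, 14.7 and 25.9 in progression and 2.49 in STOP. With 3 counts taken as the limit for D0 A, the mean of progression was at least 40.8-fold higher, and the adjusted p was 0.0230. Cxcl16, which draws Cxcr6-bearing T and NKT cells, was present at steady state with 103 CPM and rose to 408, 452 and 528 in progression (2.08 ± 0.36, adjusted p = 0.0181), with STOP at 222.

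Csf1, the growth factor of macrophages, was at 23.3 CPM in D0 A, 53.2 in D3 B, 47.6 in D5 B, 49.4, 96.0 and 145 in progression and 56.6 in STOP, and only just passed (2.07 ± 0.52, adjusted p = 0.0499). The cytokines Tnf, Il23a and Mif did not pass. Tnf was at 13.8 CPM in D0 A and at 32.0, 59.6 and 108 in progression, with STOP at 52.0 (2.17 ± 0.70, adjusted p = 0.0966). Il23a, a subunit of interleukin 23, was at 12.6 CPM in D0 A, 12.5 in D3 B, 17.6, 43.8 and 64.2 in progression and 32.0 in STOP (1.52 ± 0.65, adjusted p = 0.183), and its lowest progression library was D9 A. Mif, a constitutively made cytokine, was at 132 CPM in D0 A and 230, 320 and 498 in progression (1.04 ± 0.39, adjusted p = 0.135). All 6 progression libraries lay above D0 A for each of the 3 genes.

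**Figure D2:**
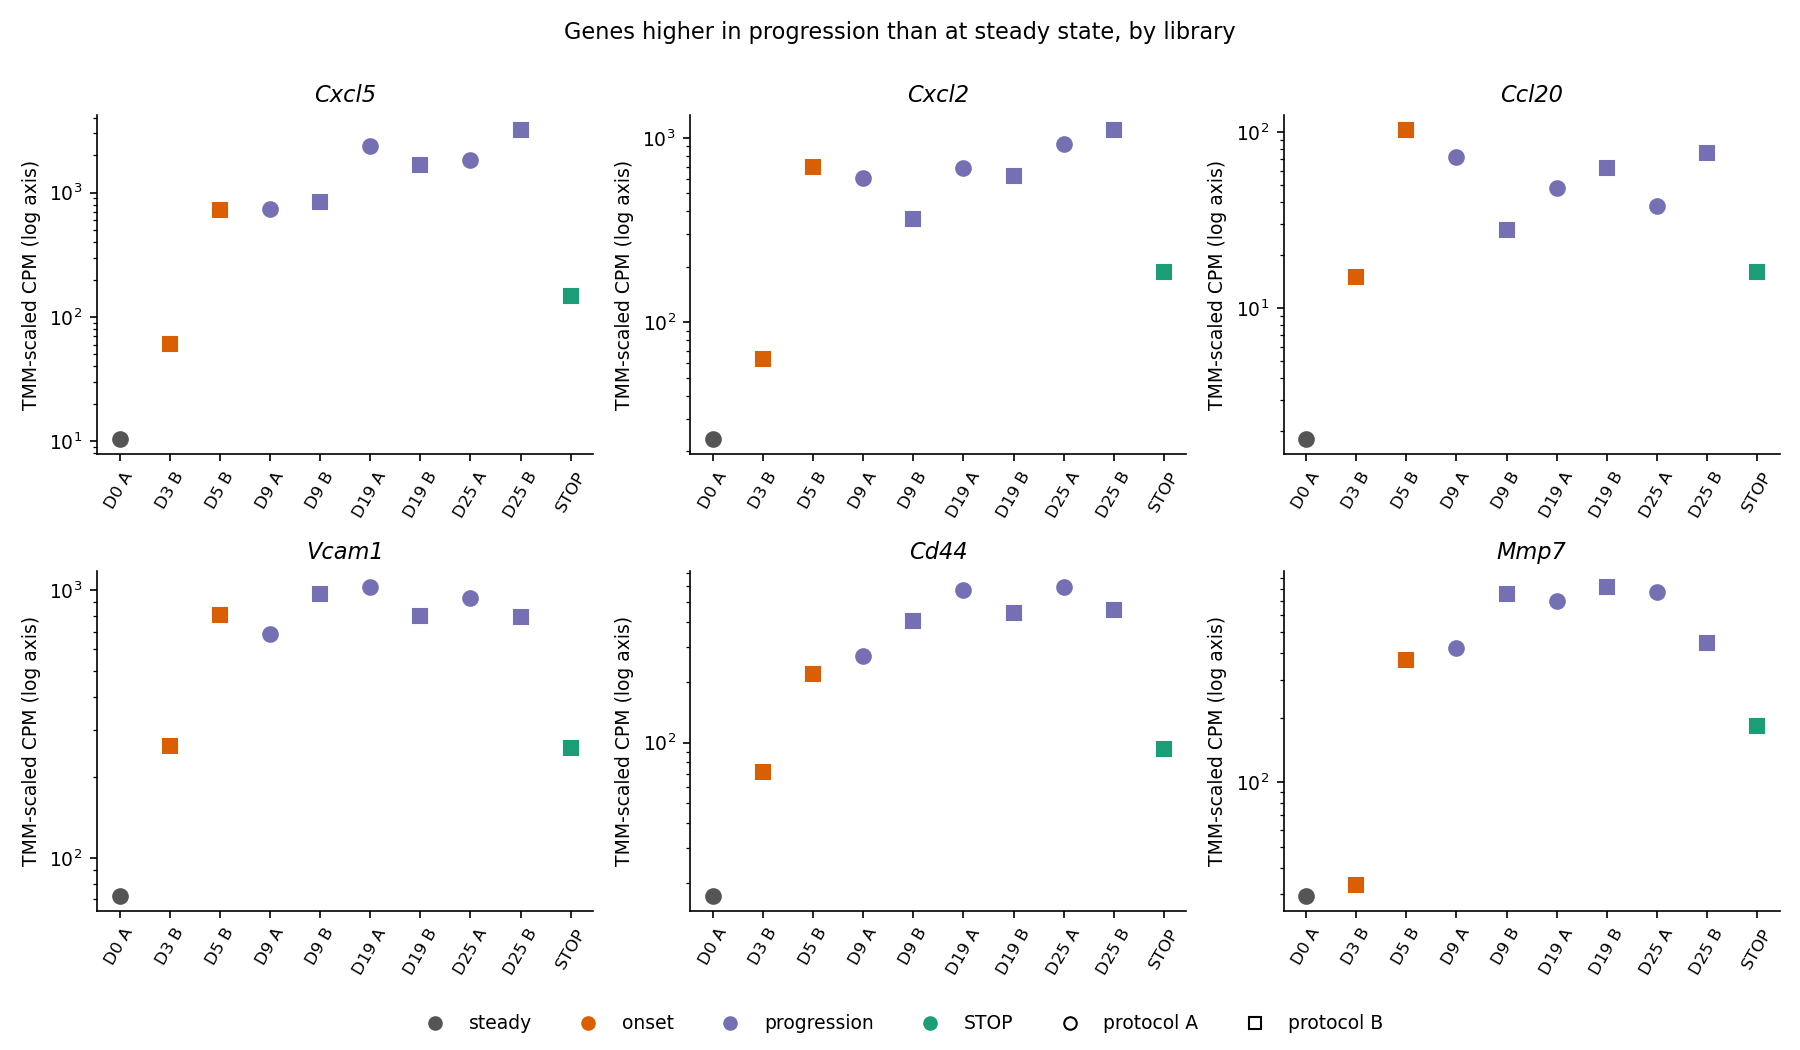
TMM-scaled CPM on a log axis (y) in each of the 10 libraries (x) for 6 genes, coloured by stage, with circles for protocol A and squares for protocol B. D3 B lies between D0 A and the lowest progression library for each gene. D5 B lies within or close to the range of the 6 progression libraries, and STOP lies below all of them for each gene.

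Of the 20 genes in the NF-kB list, which holds the pathway's factors, its inhibitors and known targets, all were tested, 2 rose (1.64% of all genes tested rose) and 1 fell (2.06%), with a median of 0.37. None of the 5 factors passed. Relb was at 47.1 CPM in D0 A, 79.0 in D3 B, 119 in D5 B, 78.0, 119 and 154 in progression and 91.8 in STOP (1.14 ± 0.33, adjusted p = 0.0716), so that every progression library lay above D0 A. Nfkb2 was at 53.9 CPM in D0 A, 37.3, 42.9 and 58.5 in progression and 33.1 in STOP (-0.01 ± 0.26, adjusted p = 0.989). Vcam1, an adhesion molecule that binds integrin-bearing leukocytes, was at 72.2 CPM in D0 A, 261 in D3 B, 806 in D5 B, 685, 868 and 1030 in progression and 258 in STOP, and rose by 3.61 ± 0.60 (adjusted p = 0.0179). Tnfaip2, a gene induced by TNF, was at 7.59 CPM in D0 A, 17.5 in D3 B, 108 in D5 B, 98.3, 138 and 218 in progression and 36.0 in STOP (4.45 ± 0.83, adjusted p = 0.0230). Nfkbiz, a nuclear inhibitor-like cofactor, fell by 1.47 ± 0.35 on the log2 scale (adjusted p = 0.0410), from 805 CPM in D0 A and 550 in D3 B to 214, 332 and 481 in progression. Icam1, another adhesion molecule of the list, was at 162 CPM in D0 A and 61.2 to 197 in progression and did not pass (-0.71 ± 0.48, adjusted p = 0.393).

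Promoters in RefSeq (GRCm38.p6), from 250 bases before to 50 after the first listed start of each gene, were searched on both strands for an NF-kB motif, GGANTTTCC, and an AP-1 motif, TGANTCA, the site of Fos and Jun dimers. The motifs share no overlap in the promoters shown. Of the 27 named genes that rose, 19 matched a promoter, and 5 of these (26.3%) held the NF-kB letters and 4 (21.1%) the AP-1 letters. Of the 18 that fell, 13 matched, with 1 (7.69%) and 0. Over all 27025 promoters the shares were 1.23% and 7.93%, and over the 10122 genes tested that had one they were 1.40% and 5.14%. These are matches of letters, which the choice of genes from the lists shapes, and not binding. The 180 bases before the start are shown for 5 genes that rose and hold a match, with the motif in capitals because they stand for the chemokine, growth factor, NF-kB, coagulation and matrix genes described here. Cxcl2 lies on the plus strand at chr5:90903719-90903898, Csf1 on the minus strand at chr3:107760470-107760649, Tnfaip2 on the plus strand at chr12:111442481-111442660, F3 on the plus strand at chr3:121723357-121723536 and Mmp7 on the plus strand at chr9:7691910-7692089.
Cxcl2: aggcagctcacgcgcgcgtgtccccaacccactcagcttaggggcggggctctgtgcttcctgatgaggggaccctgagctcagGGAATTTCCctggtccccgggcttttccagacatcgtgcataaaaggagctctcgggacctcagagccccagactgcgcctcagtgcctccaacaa
Csf1: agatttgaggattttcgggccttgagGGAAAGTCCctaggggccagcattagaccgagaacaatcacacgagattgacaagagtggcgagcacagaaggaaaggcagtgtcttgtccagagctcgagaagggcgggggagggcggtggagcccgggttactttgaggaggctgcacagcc
Tnfaip2: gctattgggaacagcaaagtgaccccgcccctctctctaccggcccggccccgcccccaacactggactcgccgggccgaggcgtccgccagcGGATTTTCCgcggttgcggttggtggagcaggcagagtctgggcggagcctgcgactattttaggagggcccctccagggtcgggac
F3: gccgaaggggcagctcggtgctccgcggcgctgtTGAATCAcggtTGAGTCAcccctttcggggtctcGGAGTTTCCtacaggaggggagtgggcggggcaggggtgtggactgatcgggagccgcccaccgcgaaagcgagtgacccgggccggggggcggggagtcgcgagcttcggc
Mmp7: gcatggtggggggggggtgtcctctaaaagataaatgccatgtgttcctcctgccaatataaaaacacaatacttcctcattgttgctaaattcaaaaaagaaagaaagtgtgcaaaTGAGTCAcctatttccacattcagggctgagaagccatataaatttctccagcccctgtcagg
Cxcl2, Csf1 and Tnfaip2 hold 1 NF-kB match each, at bases -96, -154 and -87 from the start. F3 holds 1 NF-kB match at -112 and 2 AP-1 matches at -146 and -135, and Mmp7 holds 1 AP-1 match at -63.

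Of 18 cytokine receptor genes, mostly of the IL-17, TNF and IL-6 families with a few for interleukins 1 and 4 and interferon gamma, 16 were tested, 2 rose (12.5%, against 1.64% of all genes tested) and none fell, with a median of 0.66. The 2 that rose, Ifngr2 and Il4ra, belong to none of the 3 families, of which no tested gene in this list passed. Tnfrsf19, a gene of the TNF receptor family that fell, is outside this list and described below. Ifngr2, a subunit of the interferon gamma receptor, went from 27.7 CPM in D0 A to 67.4 in D3 B, 87.4 in D5 B and 67.7, 75.5 and 93.2 in progression, and stayed at 77.6 in STOP (1.35 ± 0.27, adjusted p = 0.0254). Il4ra, the receptor chain for interleukins 4 and 13, went from 12.6 to 26.1, 29.1 and 36.3 CPM in progression, with 31.7 in STOP (1.40 ± 0.31, adjusted p = 0.0336). For both genes STOP lay within the range of progression. Tnfrsf1a, the main TNF receptor, was at 43.7 CPM in D0 A and 74.8 to 102 in progression and did not pass (1.02 ± 0.29, adjusted p = 0.0705), and the IL-17 receptor Il17re was at 78.0 CPM in D0 A and 34.3 to 54.3 in progression (-0.81 ± 0.27, adjusted p = 0.100).

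Of the 20 matrix and adhesion genes all were tested, 8 rose (40.0%, against 1.64% of all genes tested) and none fell, and the median was 1.82. Cd44, the hyaluronan receptor, was at 17.4 CPM in D0 A, 71.5 in D3 B, 220 in D5 B, 271, 450 and 596 in progression and 93.3 in STOP (4.79 ± 0.71, adjusted p = 0.0179). Mmp7 (matrilysin), a metalloproteinase of injured epithelium, was at 29.6 CPM in D0 A, 33.3 in D3 B, 372 in D5 B, 423, 730 and 816 in progression and 183 in STOP (4.41 ± 1.08, adjusted p = 0.0468). Itga2, the collagen-binding integrin chain, was at 11.6 CPM in D0 A, 16.6 in D3 B, 66.9 in D5 B, 83.0, 159 and 166 in progression and 37.7 in STOP (3.51 ± 0.66, adjusted p = 0.0230). In all 3 genes the order was the same, with D0 A lowest, D3 B next, STOP above D3 B and every progression library above D5 B. Timp1, an inhibitor of metalloproteinases, was scarce, at 0.772 CPM in D0 A (6 UMIs) and 6.40, 20.3 and 35.9 in progression (5.08 ± 1.03, adjusted p = 0.0270). The other 4 that rose were Itgb6, the chain of an integrin that activates TGF-beta (2.33), the basement membrane collagens Col4a1 (2.66) and Col4a2 (1.71), and the urokinase receptor Plaur (2.02). In STOP Col4a1 was at 61.2 CPM, within the 53.0 to 92.0 of progression, against 11.2 in D0 A. Endothelial and stellate cells make these collagens too, and in STOP the endothelial markers summed to 1384 CPM (173 to 665 in progression) and the stellate and fibroblast markers to 424 (3.65 to 591 in progression), whose part in the level of Col4a1 and Col4a2 was not tested. The laminin chains Lama3, Lamb3 and Lama5 had log2 differences of 1.85, 2.75 and 1.36 and adjusted p-values of 0.0687, 0.0578 and 0.0750.

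Genes linked to injured or regenerating epithelium were mixed, with 3 of 20 tested genes higher (against 1.64% of all genes tested), 1 lower (against 2.06%) and a median of 1.29. S100a6, a small calcium-binding protein, was at 111 CPM in D0 A, 445 in D3 B, 2363 in D5 B, 1643, 2152 and 4031 in progression and 798 in STOP (4.58 ± 0.95, adjusted p = 0.0286). Ly6d, a surface protein of epithelial progenitors, was at 8.10 CPM in D0 A, 69.9 in D3 B, 134 in D5 B, 51.5, 102 and 135 in progression and 110 in STOP (3.64 ± 0.58, adjusted p = 0.0179). For Ly6d, STOP lay inside the range of progression. Large duct cells held far more Ly6d, as given below, and the part of their RNA in its rise was not tested. Lgals3 (galectin 3) went from 21.7 to 86.9, 123 and 222 CPM in progression (2.80 ± 0.65, adjusted p = 0.0390), with 68.7 in STOP. Krt23, a keratin of ductular cells, fell by 1.27 ± 0.24 on the log2 scale (adjusted p = 0.0230), from 241 CPM in D0 A to 92.0, 108 and 138, with 151 in STOP. Clu (clusterin) was very abundant from the start, at 16226 CPM in D0 A and 15326 to 23683 in progression, and did not pass (0.38 ± 0.39, adjusted p = 0.581).

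In the list of mucosal defence and acute phase genes, 15 of 18 were tested, 1 rose (6.67%, against 1.64% of all genes tested) and none fell, with a median of 1.24. Lcn2 (lipocalin 2), which withholds iron from bacteria, was at 273 CPM in D0 A, 417 in D3 B, 5568 in D5 B, 3311, 4204 and 5596 in progression and 1361 in STOP. Every progression library was more than 10 times above D0 A, and the test gave 3.84 ± 1.11 with an adjusted p of 0.0727. Wfdc2, Hp (haptoglobin) and C3 likewise lay above D0 A in every progression library and did not pass. Lyz2 (lysozyme) passed, at 7.20 CPM in D0 A and 41.9, 113 and 185 in progression (4.20 ± 0.90, adjusted p = 0.0304). Barcodes with 10 to 100 UMIs, which hold free RNA, carried 650 to 12628 CPM of Lyz2 in the same libraries, and the part of free RNA in the change of Lyz2 was not tested. Pigr, which carries IgA into bile, was at 389 CPM in D0 A, 396 in D3 B, 74.7 in D5 B, 0 to 86.3 in progression and 32.4 in STOP (-3.29 ± 1.03, adjusted p = 0.0903).

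**Figure D3:**
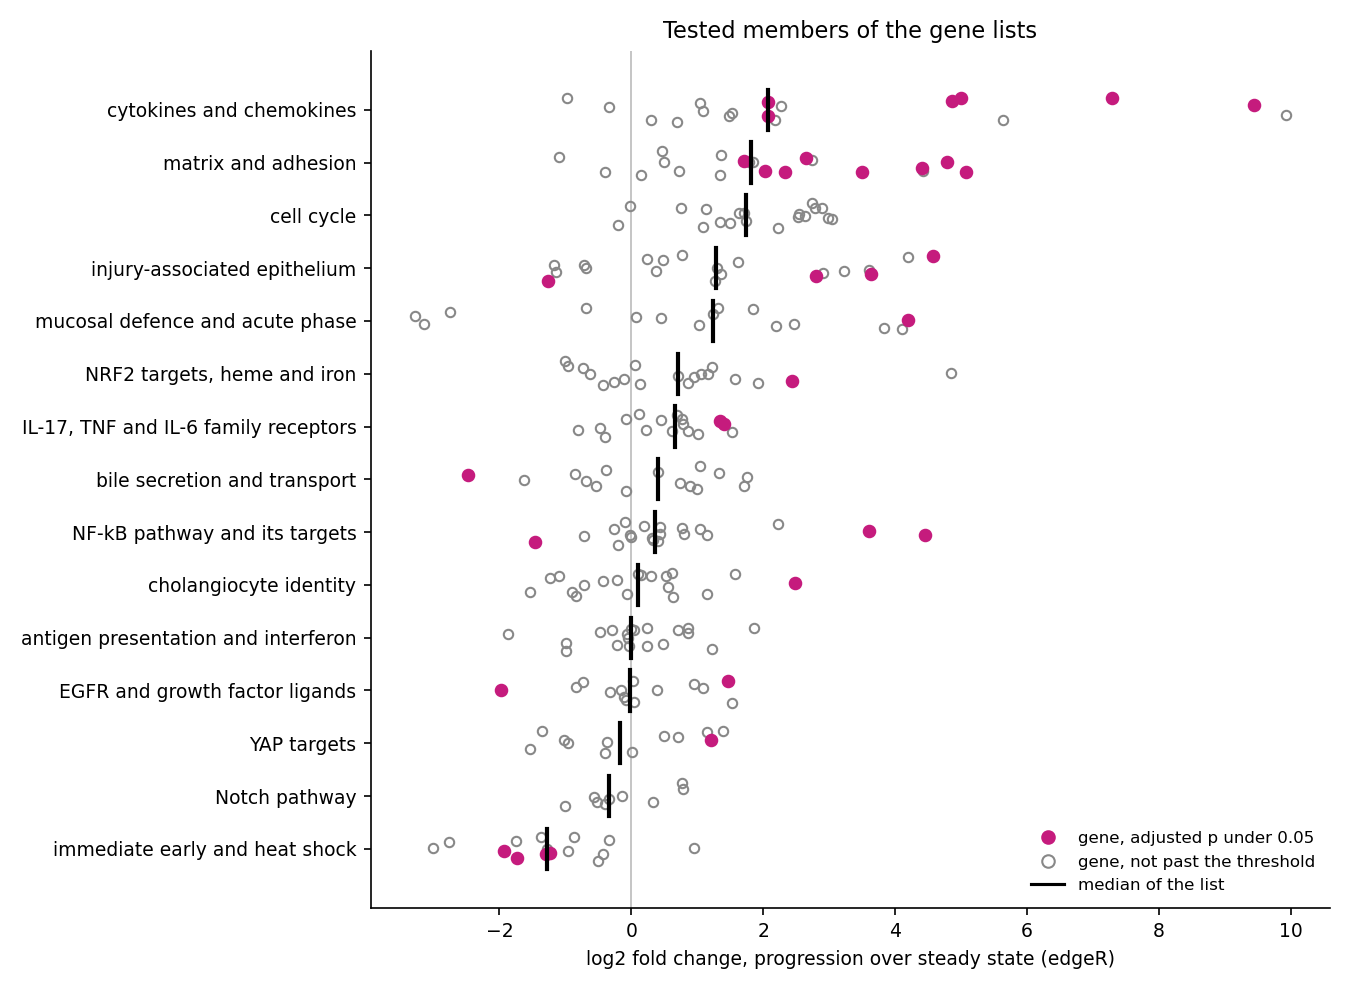
Log2 fold change of progression over steady state (x axis) for every tested gene of the 15 lists (y axis), with filled points for genes past an adjusted p of 0.05 and a bar at each list's median. The medians run from -1.28 for immediate early and heat shock genes to 2.08 for cytokines and chemokines, and matrix and adhesion has the most filled points (8).

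Among called genes whose log2 CPM averaged 5 or more, with predicted genes set aside, the largest rises described here were in Cxcl5, Nupr1, Wfdc18, Cxcl2, Ccl20, Cd44, Il1rn, S100a6 and Gabrp. Nupr1, a chromatin protein induced by stress, was at 7.33 CPM in D0 A, 9.15 in D3 B, 136 in D5 B, 143, 353 and 522 in progression and 44.1 in STOP (5.70 ± 1.31, adjusted p = 0.0383). Wfdc18, a small secreted protein of the protease inhibitor family, was at 18.3 CPM in D0 A and 682, 1001 and 1897 in progression, with 269 in STOP (5.49 ± 1.05, adjusted p = 0.0230). Il1rn, the natural antagonist of interleukin 1, was at 12.0 CPM in D0 A, 79.0 in D3 B, 298 in D5 B, 204, 295 and 350 in progression and 86.1 in STOP (4.60 ± 0.71, adjusted p = 0.0179). Gabrp, an epithelial subunit of the GABA receptor, was at 5.40 CPM in D0 A, 0.832 in D3 B, 47.6 in D5 B, 82.3, 146 and 177 in progression and 76.2 in STOP (4.54 ± 1.01, adjusted p = 0.0343). All progression libraries lay above D0 A and D3 B for Nupr1, Wfdc18, Il1rn and Gabrp.

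Under the same limit on level, the 10 largest falls were in Vtn, Peg3, Rbp4, Hps3, Fmo2, Fxyd1, Angpt1, Itih5, Tnfrsf19 and Ikzf4. Hps3, a subunit of a complex for lysosome-related organelles, was the clearest, with 327 CPM in D0 A, 60.7 in D3 B, 53.0 in D5 B, 18.7, 38.1 and 82.6 in progression and 172 in STOP (-3.36 ± 0.35, adjusted p = 0.00367), and it also passed without D25 A. Fmo2, a flavin monooxygenase, was at 519 CPM in D0 A, 292 in D3 B, 54.2 in D5 B, 34.3, 51.4 and 69.6 in progression and 215 in STOP (-3.27 ± 0.57, adjusted p = 0.0181). Peg3, an imprinted zinc finger gene, was at 210 CPM in D0 A, 85.7 in D3 B, 40.6 in D5 B, 9.46, 16.2 and 35.7 in progression and 18.9 in STOP (-3.51 ± 0.52, adjusted p = 0.0179). Fmo2 and Hps3 in STOP lay above every progression library, while Peg3 in STOP lay among them.

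Vtn (vitronectin) and Rbp4 (retinol binding protein), plasma proteins made in bulk by hepatocytes, fell from 147 and 164 CPM in D0 A to medians of 3.78 and 8.77 in progression, with 44.9 and 57.0 in STOP (-3.77 ± 0.82 and -3.43 ± 0.68, adjusted p of 0.0318 and 0.0243). The sum of hepatocyte markers moved the same way, at 7283 CPM in D0 A, 712 to 2888 in progression and 4437 in STOP, and its part in these 2 results was not tested. Angpt1, the ligand of the endothelial receptor Tek, fell from 131 CPM to 9.36, 19.4 and 34.9 (-2.68 ± 0.50, adjusted p = 0.0230). Tnfrsf19, an orphan receptor of the TNF receptor family, fell from 106 CPM to 12.5, 17.9 and 25.5 (-2.53 ± 0.33, adjusted p = 0.0122). Fxyd1, Itih5 and Ikzf4 fell by 3.06, 2.63 and 2.44 on the log2 scale. No progression library reached D0 A in any of these genes.

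**Figure D4:**
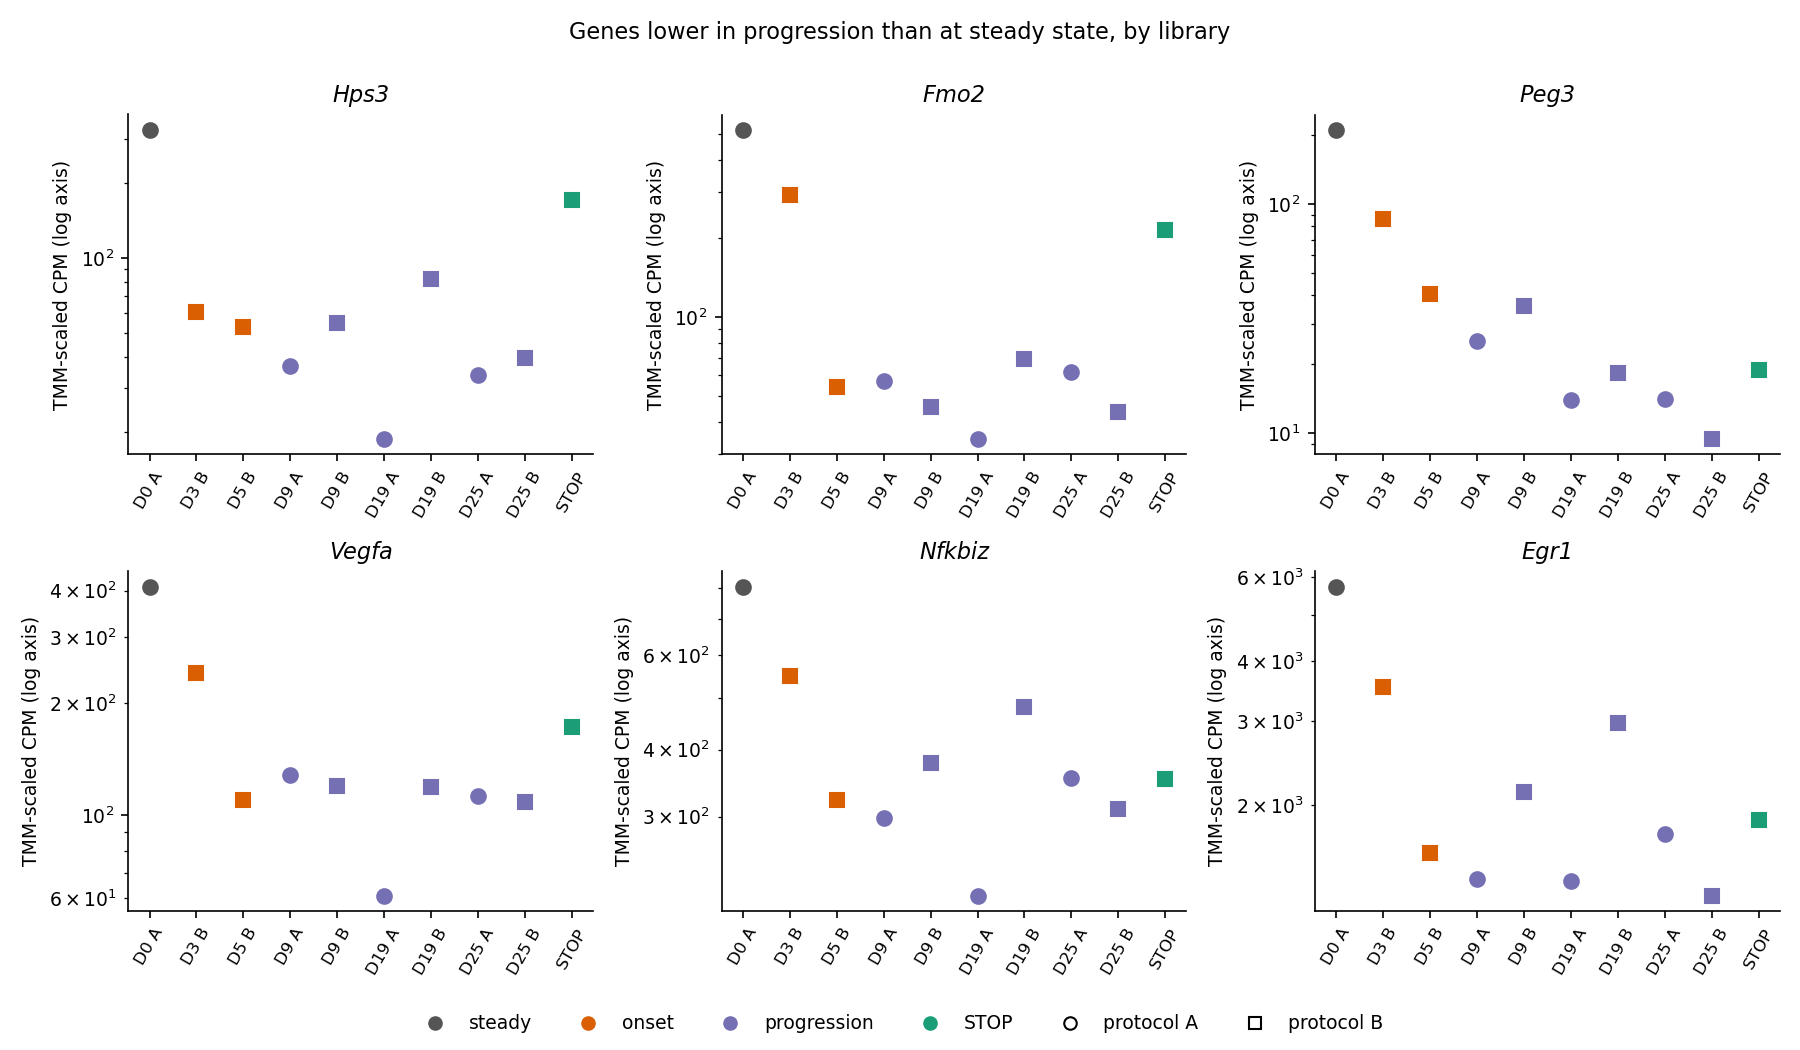
TMM-scaled CPM on a log axis (y) in each of the 10 libraries (x) for 6 genes that fell in progression, coloured by stage, with circles for protocol A and squares for protocol B. D0 A is the highest library for each gene, and Fmo2 in STOP (215 CPM) lies between D3 B (292) and the progression libraries (34.3 to 69.6).

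Immediate early and heat shock genes, which the cell switches on within minutes of stimulation or stress and also during tissue dissociation, had 4 of 15 tested members that fell in progression (26.7%, against 2.06% of all genes tested) and none that rose. The median was -1.28, and the other 11 did not pass. Egr1 was at 5731 CPM in D0 A, 3527 in D3 B, 1582 in D5 B, 1290, 1568 and 2963 in progression and 1855 in STOP (-1.93 ± 0.45, adjusted p = 0.0396). Jun was at 4856 CPM in D0 A, 4125 in D3 B, 1417 in D5 B, 1236, 1673 and 2262 in progression and 2342 in STOP (-1.74 ± 0.44, adjusted p = 0.0497). Jund and Hsp90aa1 fell by 1.30 and 1.23 on the log2 scale. D0 A and D3 B thus held the highest levels of all 4. The heat shock genes Hspa1a and Hspa1b were at 420 and 742 CPM in D0 A and at 19.8 to 113 and 33.1 to 165 in progression and did not pass (adjusted p of 0.0723 and 0.0529).

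Of 18 bile secretion and transport genes, 15 were tested, none rose and 1 fell (6.67%, against 2.06% of all genes tested), with a median of 0.41. Cftr, the apical chloride channel that drives bicarbonate secretion, was at 36.3 CPM in D0 A, 48.4 to 128 in progression and 54.1 in STOP (1.04 ± 0.42, adjusted p = 0.160). Anpep (aminopeptidase N), a brush border enzyme, fell by 2.48 ± 0.46 on the log2 scale (adjusted p = 0.0230), from 58.5 CPM in D0 A through 27.4 in D3 B and 18.9 in D5 B to 3.12, 7.34 and 17.1 in progression, with 17.4 in STOP. Hepatocytes make Anpep too, and the part of the hepatocyte RNA described above in its fall was not tested. The sodium-glucose transporter Slc5a1 was at 251 CPM in D0 A and 42.1 to 127 in progression and just missed (-1.63 ± 0.41, adjusted p = 0.0504).

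Of 19 tested cholangiocyte identity genes 1 rose (5.26%, against 1.64% of all genes tested), none fell and the median was 0.10. Cldn4, a tight junction claudin, was the gene that rose, from 83.9 CPM in D0 A to 211 in D3 B, 489 in D5 B and 407, 567 and 930 in progression, with 203 in STOP (2.48 ± 0.52, adjusted p = 0.0290). Spp1 differed by 0.15 ± 0.39 (adjusted p = 0.844).

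Of 14 tested growth factor genes 1 rose and 1 fell, against 1.64% and 2.06% of all genes tested. Pdgfb, a growth factor for stellate cells, rose from 46.6 CPM to 78.1, 116 and 138 in progression and was at 41.3 in STOP (1.47 ± 0.29, adjusted p = 0.0241). Vegfa, the endothelial growth factor, fell by 1.98 ± 0.38 on the log2 scale (adjusted p = 0.0230). It was at 410 CPM in D0 A, 240 in D3 B, 110 in D5 B, 60.8, 116 and 128 in progression and 172 in STOP. The hepatocyte marker sum described above was also highest in D0 A, and its part in the fall of Vegfa was not tested. Of 12 tested YAP targets 1 passed (8.33%), as F3 (tissue factor, the starter of coagulation) rose from 91.9 CPM to 190, 235 and 284 (1.22 ± 0.26, adjusted p = 0.0312), with 116 in STOP. Ankrd1 and Ccn1, which are among the classical YAP targets, were highest in D3 B, at 1459 and 1325 CPM, against 483 and 811 in D0 A. In progression they were at 187 to 649 and 253 to 817 CPM, and neither passed. Ccn2, another classical target, differed from them and was highest in D19 A. It was at 110 CPM in D0 A, 269 in D3 B, 295 in D5 B and 100 to 345 in progression, a log2 difference of 0.72. None of 9 tested Notch genes passed, and the pathway's main members here, Hes1 and Jag1, were at 434 and 289 CPM in D0 A and at medians of 409 and 253 in progression, differences of -0.14 ± 0.31 and -0.33 ± 0.28.

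DDC blocks heme synthesis and loads ducts with porphyrin. Of 19 tested genes of the oxidative stress, heme and iron list 1 rose (5.26%, against 1.64% of all genes tested), with a median of 0.72. Hmox1 (heme oxygenase 1), which breaks down heme, was at 13.4 CPM in D0 A, 26.6 in D3 B, 31.2 in D5 B, 40.4, 67.4 and 97.1 in progression and 28.8 in STOP (2.43 ± 0.52, adjusted p = 0.0304). Fech, the enzyme that DDC metabolites inhibit, was at 63.8 CPM in D0 A and 48.7 to 57.7 in progression (-0.27 ± 0.24, adjusted p = 0.523).

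Proliferation genes were uneven among the libraries of onset and of progression. None of the 19 tested cell cycle genes passed, where 1.64% of all genes tested rose and 2.06% fell. Of the 19, 17 had a positive difference, and the median was 1.73. Mki67, present only in cycling cells, was at 14.7 CPM in D0 A, 4.16 in D3 B, 74.3 in D5 B, 169.5 in D9 A, 78.5 in D9 B, 39.0 in D19 A, 11.05 in D19 B, 82.2 in D25 A, 47.3 in D25 B and 8.19 in STOP. Top2a followed it, with 61.2 CPM in D5 B, 167 in D9 A, 19.6 in D19 B and 12.1 in STOP. The highest library was D9 A for both. D19 B lay at the level of D0 A, but D19 B is of protocol B and D0 A of protocol A. Within protocol A, Mki67 in D9 A, D19 A and D25 A lay above D0 A. On each of these days Mki67 was higher in protocol A than in protocol B. Ccnd1 and Pcna, the most abundant members, differed by -0.20 ± 0.37 and -0.03 ± 0.37.

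None of 19 tested antigen presentation and interferon genes passed, where 1.64% of all genes tested rose and 2.06% fell. Of the 19, 9 had a positive difference. The class I genes H2-K1 and H2-D1 were at 1868 and 1034 CPM in D0 A and at medians of 1556 and 1281 in progression (-0.30 ± 0.29 and 0.23 ± 0.29). The class II genes H2-Aa, H2-Ab1 and H2-Eb1 were each at 319 to 320 CPM in D5 B and at most 104 in any progression library, beside 126, 145 and 121 in STOP. In D5 B the T, NK and B cell markers were also at their highest sum (56.0 CPM), with the B cell genes Cd79a at 0 and Cd79b at 0.821 CPM. Protocol B also sorted Cd45+ Itgax+ Cd64- cells, for which no marker list was used. The source of the class II transcripts in D5 B was not tested.

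Onset joined libraries that differed from each other. Over the 13150 genes tested the difference between onset and steady state had a median of 0.0006, and no list member passed. The gene lists nevertheless held medians of 1.15 for cytokines and chemokines, 1.19 for matrix and adhesion, 1.34 for injury-associated epithelium, 0.94 for mucosal defence and acute phase, 2.07 for cell cycle and -0.79 for immediate early and heat shock genes. The genes set against D0 A next were picked for this purpose after their values were seen. Mmp7 (33.3 CPM in D3 B against 29.6 in D0 A), Nupr1 (9.15 against 7.33) and Lcn2 (417 against 273) were near D0 A in D3 B. Each was much higher in D5 B. Ly6d (69.9 against 8.10), Il1rn (79.0 against 12.0), Cxcl5 (60.7 against 10.4) and Cd44 (71.5 against 17.4) were already several times above D0 A in D3 B. Across the genes with at least 100 UMIs, log2 CPM of D3 B correlated with D0 A at 0.929 and with D5 B at 0.918, whereas D5 B correlated with D9 A and D9 B at 0.962 and 0.960 (Pearson, across 11800 genes, which are not independent). Both onset libraries are of protocol B and D0 A is of protocol A, and the term for protocol rests on the progression libraries alone.

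Between progression and onset the list medians ran from -0.28 for antigen presentation and interferon to 0.50 for matrix and adhesion. Without D5 B, 73 genes passed between progression and D3 B alone, and without D3 B, 3 passed between progression and D5 B alone.

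STOP is 1 library, and it was set beside D19 B, which has the same protocol and nearly the same length of diet. Each value is a share of UMIs with an exact 95% Poisson interval that covers counting error only, and this pair was not tested. Cxcl5 was at 147 CPM (133 to 162) in STOP and 1675 (1635 to 1716) in D19 B, a ratio of 11.4. Cd44 was 4.74 times lower in STOP, at 93.3 CPM (82.3 to 105) against 442 (421 to 463), and Mmp7 4.47 times lower, at 183 (167 to 199) against 816 (788 to 845). Vcam1 and Ccl20 were 3.11 and 3.89 times lower. Over all 13150 genes tested, 11.5% were lower and 11.7% higher in STOP with intervals that did not meet, and intervals are narrower for abundant genes. Of the 20 cytokine and chemokine genes, 12 were lower by this count and none higher, and of the 20 matrix and adhesion genes 13 were lower and 1 was higher. NF-kB genes (12 of 20) and immediate early and heat shock genes (9 of 15) were also lower in large part, so the counts describe this pair of libraries and single out no list.

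Other genes did not follow. Tnf was at 52.0 CPM (43.9 to 61.1) in STOP and 61.5 (54.1 to 69.7) in D19 B, intervals that overlap. Ly6d was higher in STOP, at 110 CPM (98.4 to 123) against 72.6 (64.4 to 81.4), and Tff2, a trefoil peptide of mucosal repair, was at 522 (495 to 549) against 177 (164 to 190). Among the 20 antigen presentation and interferon genes 9 were higher and 3 lower in STOP (11.7% and 11.5% of all genes tested), as for Isg15, at 93.6 CPM (82.7 to 106) against 36.2 (30.5 to 42.6). Fmo2 and Hps3 were 215 and 172 CPM in STOP against 69.6 and 82.6. Kdr and Pecam1, which define endothelium, were also higher in STOP, at 313 and 105 CPM against 93.9 and 32.9, as were Col3a1, Col1a1 and Dcn, which define fibroblasts, at 141, 83.7 and 70.8 CPM against 0.753, 1.51 and 2.01. The stellate and fibroblast markers summed to 424 CPM in STOP and 10.6 in D19 B, and the hepatocyte markers to 4437 and 1233. Of the 6 large duct markers, 3 were at 0 by the rule. The 6 summed to 18.3 CPM in STOP, 5.96 in D19 B and at most 8.75 in the other libraries. In STOP this was 43 UMIs of Sox17, 3 of Cited1 and 1 of Muc3. In D19 B it was 23 UMIs of Sox17 and 0 of Cited1 and Muc3. The difference thus rests largely on Sox17, whose source in these sums was not tested. Ly6d and Tff2 are more abundant in large duct cells. The part of endothelial, fibroblast, hepatocyte and large duct RNA in the higher values of STOP was not tested. Aqp1, the water channel of ducts, which endothelium makes too, was at 370 CPM in STOP against 127.

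Against all of progression, the list medians in STOP were -1.52 for cytokines and chemokines, -0.79 for matrix and adhesion, -1.18 for cell cycle and -0.54 for YAP targets, beside -0.03 over all genes tested. Progression also serves as the first group of the comparison with steady state, so the directions of these differences are not independent of that comparison.

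**Figure D5:**
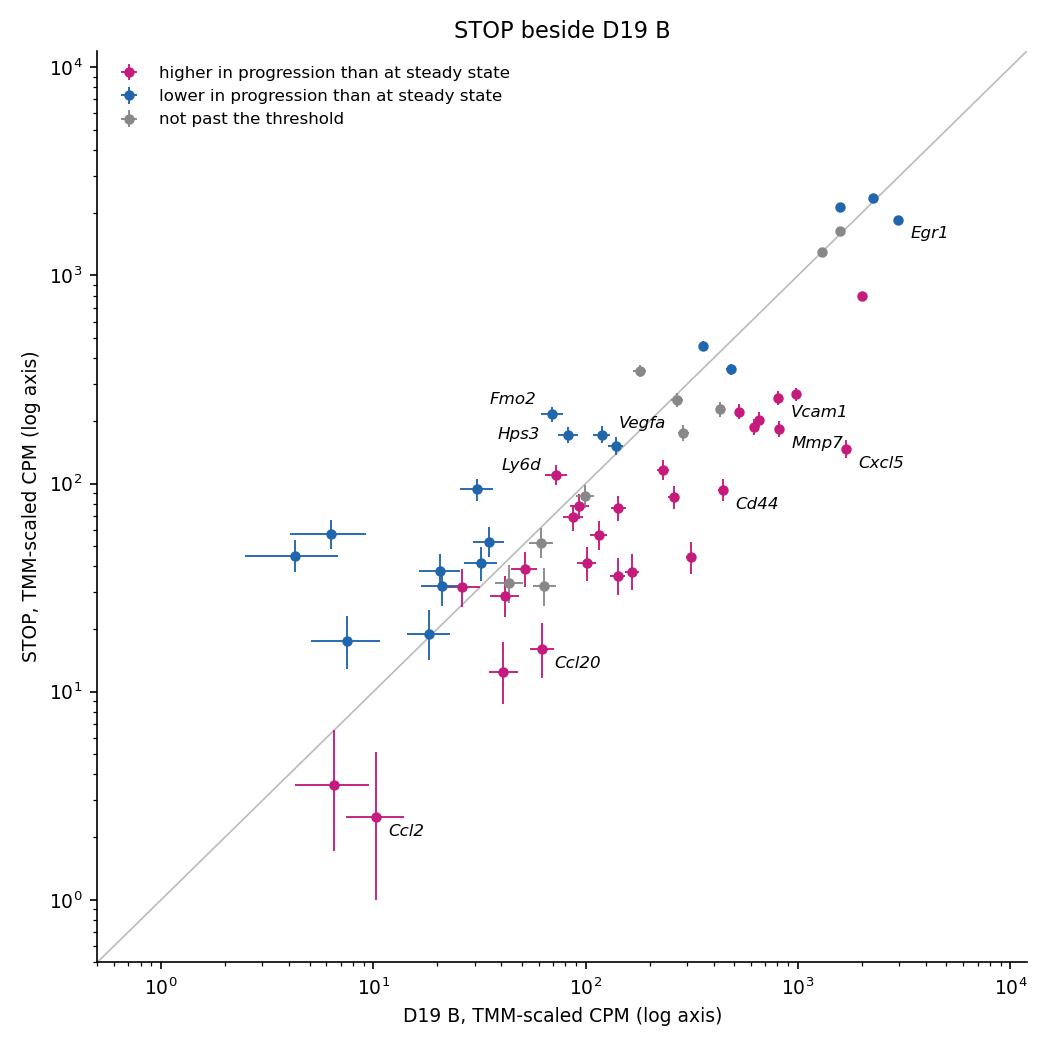
TMM-scaled CPM of the 55 named genes in D19 B (x) and STOP (y), both on log axes, with exact 95% Poisson intervals as bars and the line of equality in grey. Cxcl5, Cd44 and Mmp7 lie well below the line, Ly6d, Fmo2 and Hps3 above it, and 35 of the 55 genes lie below.

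How many member cells carried a transcript was compared after thinning each cell to 1500 UMIs, with exact 95% binomial intervals that cover counting error only. Vcam1 was seen in 8.20% of members in D0 A (5.98 to 10.9), 51.1% in D5 B (43.6 to 58.5), 61.2% in D25 A (57.1 to 65.2) and 28.6% in STOP (22.8 to 34.9). Cxcl5 was seen in 0.781%, 26.1%, 49.4% and 12.6% of members in the same libraries, and Cd44 in 2.54%, 16.8%, 49.6% and 11.3%. Over the 6 progression libraries the thinned share ran from 47.3% to 61.2% for Vcam1, from 31.8% to 64.7% for Cxcl5 and from 28.0% to 51.2% for Cd44. Ccl20 was rarer, at 0.586%, 4.89%, 4.96% and 1.30%, as was Tnf, at 2.34%, 9.78%, 9.40% and 6.06%. Without thinning the shares in D25 A were 94.2% for Vcam1, 79.3% for Cxcl5, 89.2% for Cd44, 19.8% for Ccl20 and 43.4% for Tnf.

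T cells of the same libraries, which should lack Vcam1 and Cxcl5, served to gauge background. In D0 A, 80 T cells with a median of 3334.5 UMIs before thinning gave 1.25% for both genes. The members of D0 A, with a median of 10735.5 UMIs before thinning, gave 0.781% for Cxcl5. So few T cells cannot tell whether this share is background. In D25 A, 61 T cells with a median of 3261 UMIs before thinning gave 11.5% for Vcam1 and 0% for Cxcl5. Here 0 of 61 allows up to 4.92% of cells with a UMI at the thinned depth. The members of D25 A had a median of 13624 UMIs before thinning. In D5 B, with 1855 T cells, the shares were 1.40% for Vcam1 and 0.485% for Cxcl5, and in STOP, with 2631, they were 2.66% and 0.0760%, all below those of the members. Tnf and Cd44 are made by T cells too, at 8.20% and 26.2% in D25 A, and Ccl20 by some of them, so for these 3 genes there is no background share. Ccl2 was seen in 0 of 512 members in D0 A, which allows up to 0.586% of cells (3 of 512) with a UMI at the thinned depth and sets no limit on the share of cells that make the transcript. It was seen in 2.72% of members in D5 B and 1.71% in D25 A.

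Set beside large duct cells of the same libraries (at least 2 UMIs of Dmbt1, Muc4 and Aqp8, 9 libraries with at least 20 cells of both kinds), the small duct members differed in many genes. The gate contrasts the same cells, so the values, CPM without TMM scaling, are a description. Cxcl1 and Cxcl2 averaged 649 and 500 CPM in small duct cells and 60.8 and 51.9 in large duct cells and were higher in small duct cells in 9 of 9 libraries. Rgs5, Ltb and Cldn6 were also higher in all 9. Cxcl5, at means of 1006 and 308 CPM, was higher in small duct cells in 7 of 9, and Vcam1, at 607 and 204, in 7 of 9. Ly6d, at 92.7 CPM in small and 3968 in large duct cells, and Tff2, at 212 and 643, were lower in small duct cells in all 9.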

How the data were processed

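The authors deposited UMI counts per gene and barcode, made from 10x 3′ libraries with kallisto on GRCm38 (the version is not given in the sources used here). The counts were used as deposited. Cells were barcodes of 1500 UMIs or more, no doublet caller was run, and members, found by the rule given above, were summed per library. The members and gene lists were chosen with earlier results of these data known. Sums of at least 20 cells (10 of 13 libraries) were fitted in edgeR 4.0.16 (R 4.3.3) with TMM scaling, filterByExpr and the quasi-likelihood test, with terms for stage and protocol and Benjamini-Hochberg adjustment over all 13150 genes tested. The term for protocol rests on the progression pairs of A and B, and stages of 1 library were assumed to vary like the others. Genes named in the text were, per comparison, the 10 largest rises and falls among genes past an adjusted p of 0.05 whose log2 CPM averaged 5 or more (leaving out gate, ribosomal, mitochondrial and predicted genes), up to 4 called members per list, or the 2 most abundant where none was called, and the genes that the study names for these cells; other genes were named after their values were seen, and some that the rule named are not reported here. D18 and D19 were treated as 1 day. The SE after each ± was derived as the absolute log2 fold change divided by the square root of the quasi-likelihood F statistic. Intervals and limits cover counting error only. The test was run on simulated counts with known changes, where at a log2 change of 2 it recovered 55.0% for progression against steady state (9.84% of its calls were false), 32.5% between onset and D0 (18.8% false), 75.5% between progression and onset (4.43%) and 54.5% between STOP and progression (1.80%).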

Additional observations from a re-analysis of the deposited data

Results flagged for a closer look

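Among the 6 progression libraries, 4 of 64 values examined had 1 library far from the others, where chance alone gives about 1 in 20. Vtn was at 19.4 CPM in D9 A and at most 6.62 in the others. Anpep was at 17.1 CPM in D9 A and at 3.12 to 7.53 in the others. D9 A also had the highest hepatocyte marker sum of the 6, at 2888 CPM against 712 to 1708, and its part in the values of Vtn and Anpep was not tested. Vegfa was at 60.8 CPM in D19 A, the library with the fewest members, and at 109 to 128 in the others. D19 A also had the lowest hepatocyte marker sum of the 6, at 712 CPM, and its part in the value of Vegfa was not tested. H2-D1 was at 1626 CPM in D25 B and at 1125 to 1300 in the others.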

How the results depend on the processing

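The comparison of progression with steady state (487 genes) gave 763 genes with DESeq2, 1711 with no filter on low counts, 311 without cells holding 3 or more UMIs of other cell types' markers, and 1151 both with no term for protocol and in protocol A alone. Leaving out 1 library at a time gave 4 (without D25 A) to 1055 (without D5 B) genes. Onset against steady state (0) gave 64 with DESeq2, 430 with no filter, 18 with no term for protocol and 0 to 111 leaving out 1 library. Progression against onset (0) gave 23 with DESeq2, 324 with no filter, 1 without cells holding other types' markers, 1 with at least 10 cells per library and 0 to 73 leaving out 1 library. STOP against progression (0) gave 76 with DESeq2, 492 with no filter, 2 without cells holding other types' markers, 7 with at least 10 cells, 45 in protocol B alone and 0 to 39 leaving out 1 library. The cause of these differences was not tested. The other types' markers counted in these settings left out those of hepatocytes, so cells with hepatocyte RNA were kept. Of the 45 named genes called between progression and steady state, 44 were also called with DESeq2, 37 without cells holding other types' markers, 21 without D19 A, 33 without D19 B and 1 without D25 A. Differences near 0 changed sign for Hes1 (0.0313 without cells holding other types' markers, -0.3951 to 0.0402 leaving out 1 library), for Pcna (0.1628 without such cells, 0.0142 with at least 10 cells, 0.0266 with no condition on Ptprc, -0.3248 to 0.1555 leaving out 1 library) and for Nfkb2 (0.0137 with at least 2 Sox9 UMIs, -0.1093 to 0.0932 leaving out 1 library). The smallest sum, D19 A, held 43 cells, which limits what can be said of genes of low level there.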
